A study of Mus musculus with 21 samples.

Results

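The stefin A cystatin genes Stfa1, Stfa2, Stfa3, Csta3, Cstdc5 and Cstdc6 were followed across 21 RNA-seq libraries of mouse skin. They were taken by symbol from a count table of 64050 gene symbols, which listed all 6 of them. The genes were proposed because of their levels in allogeneic skin and under anti-IL1RAP antibody, so their values in those groups are given as a description, with no test. The choice as stated does not name the comparison of nintedanib with water, and the genes were tested in it. Earlier results of these data were known when they were chosen, so that test may not be independent of the choice.

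Stefins are small cystatins that stay inside the cell and block papain-like cysteine proteases, the cathepsins, by inserting a conserved loop into the active site. In skin, stefin A is a protein of the upper epidermis and is built into the cornified envelope, the cross-linked shell of dead surface cells. Mice carry a cluster of near-identical stefin A copies, which are known from neutrophils and inflamed epidermis.

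All recipients were BALB/c mice, 8 weeks old, that received bone marrow after a total body irradiation of 700 cGy. The syngeneic isotype group (Syn, 4 libraries) had BALB/c marrow and an isotype control antibody. The other 4 groups had B10.D2 marrow, which models chronic graft-versus-host disease with hardening of the skin, driven by donor cells. They were given isotype antibody (Allo, 4 libraries), mCAN10, an antibody against the interleukin 1 receptor accessory protein IL1RAP (4 libraries), ddH2O (Allo_H, 4 libraries) or Nintedanib, an inhibitor of receptor tyrosine kinases (Nin, 5 libraries). Antibody was injected 2 times per week, first at 20 mg/kg and then at 10 mg/kg, and the protocol gives nintedanib as 50 mg/kg daily by mouth, although the series' design text speaks of injection for every allogeneic group. Treatment started on day 21 and skin 3 mm across was taken at week 7. Donor strain and disease part the syngeneic from the allogeneic groups alike and cannot be told apart.

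Total counts per library ran from 17130260 to 32899210. The Syn, Allo and mCAN10 libraries (12) were counted with other gene names than the Allo_H and Nin libraries (9), so groups were compared within a counting run. The filter, scaling factors and spread behind these comparisons still came from 1 fit of all 21 libraries, across both runs. Counts of 4 Y-linked genes summed to 4.40 ± 1.63 CPM (counts scaled to library size; SD, n = 4) in syngeneic and to 0 in all 4 allogeneic isotype libraries and so part these groups as well. They were also at 0 in all 4 water libraries, at 11.7 and 27.9 CPM in nintedanib replicates 2 and 4, at 15.2 CPM in mCAN10 replicate 2, and at 0 in the other nintedanib and mCAN10 libraries. The skin keratins were present throughout, with Krt14 between 1208 and 8315 CPM in every library. In hair follicle genes 2 nintedanib libraries stood apart, where 14 such genes summed to 40540.5 CPM in replicate 1 and 17134 CPM in replicate 3 against at most 29.3 CPM in the other 3.

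The first sequences shown are those of the part of each coding sequence that holds the protease-binding loop, because they show how alike the 6 genes are. Each is 75 bases, written 5′ to 3′ from the GENCODE M21 transcripts (GRCm38), and capitals mark bases that differ from Stfa1.
Stfa1: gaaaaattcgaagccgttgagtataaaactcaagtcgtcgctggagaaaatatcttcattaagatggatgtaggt
Cstdc5: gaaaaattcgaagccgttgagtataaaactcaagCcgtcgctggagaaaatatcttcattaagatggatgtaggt
Cstdc6: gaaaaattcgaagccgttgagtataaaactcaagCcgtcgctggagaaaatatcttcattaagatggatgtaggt
Csta3: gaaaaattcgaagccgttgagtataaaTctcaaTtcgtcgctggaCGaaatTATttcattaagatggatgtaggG
Stfa3: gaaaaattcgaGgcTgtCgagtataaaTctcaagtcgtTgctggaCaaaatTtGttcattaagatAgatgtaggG
Stfa2: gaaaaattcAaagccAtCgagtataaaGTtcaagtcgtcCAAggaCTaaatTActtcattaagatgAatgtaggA
Over this stretch Cstdc5 and Cstdc6 differed at 0 bases, Stfa1 differed from each of them at 1 base, and Stfa2 and Stfa3 differed from one another at 16.

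Over the whole coding sequence, identity between members ran from 74.7%, for Stfa1 and Stfa2, to 98.0%, for Stfa1 and Cstdc5. Cstdc6 shared 95.2% of its aligned bases with Cstdc5 and 93.5% with Stfa1. Windows of 50 bases that also occur, on either strand, in the transcripts of another gene made up 26.9% of the Stfa1 transcript, 48.9% of Cstdc5, 33.7% of Cstdc6 and 15.9% of Stfa2, and 0 of the windows of Stfa3 and Csta3. At 150 bases no member had a shared window. Reads that fall in shared stretches cannot be placed on 1 gene with certainty, so the split between Stfa1, Cstdc5 and Cstdc6 is uncertain and the summed counts of all 6 genes are given beside each result. How such reads were counted was not stated in the sources used here. If they were left out, the summed counts lack them too.

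**Figure D1:**
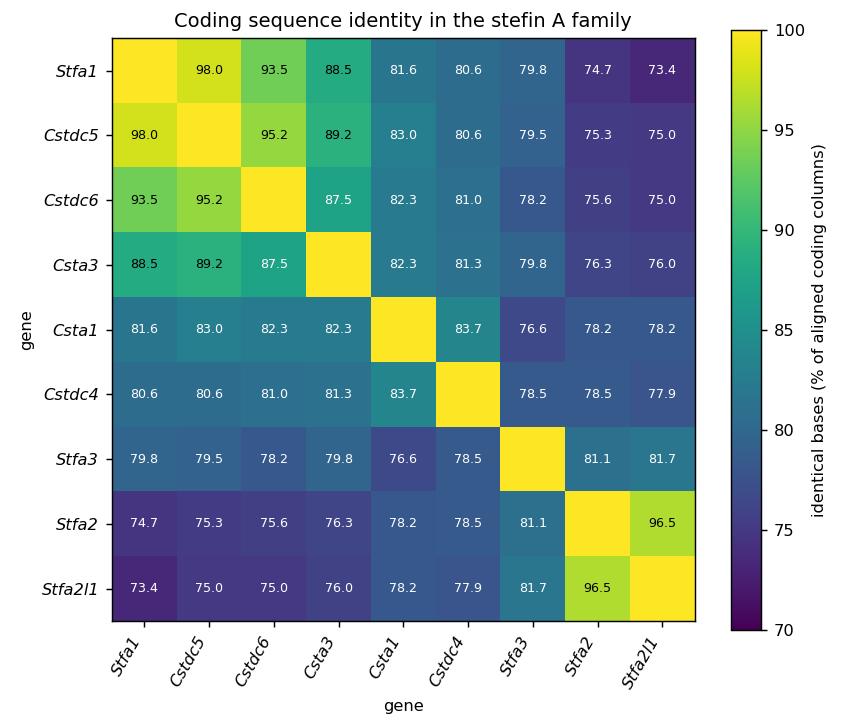
Percent identical bases between aligned coding sequences of the 6 stefin A genes and 3 relatives (Csta1, Cstdc4 and Stfa2l1), both axes listing genes, with darker cells for lower identity. Stfa1, Cstdc5 and Cstdc6 form a block with 93.5% to 98.0% identity, and Stfa2 is nearest to Stfa2l1 at 96.5%.

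The genes also share sequence around their transcription starts. Shown next is a stretch of 78 or 79 bases from the promoters of 5 members (RefSeq, GRCm38.p6, chromosome 16, where Cstdc6 is not in the promoter table), to show the bases they share. A link between these bases and the levels of the genes was not tested. Capitals mark the longest run of bases found in all 5 windows, GGATCATTTCTTCTCAG, and before it the longest such run around TTTAAA, ACCTTTAAAACCC.
Csta3, chr16:36210293-36210370, + strand: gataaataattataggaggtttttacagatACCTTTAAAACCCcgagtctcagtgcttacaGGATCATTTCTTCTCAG
Stfa1, chr16:36277085-36277163, + strand: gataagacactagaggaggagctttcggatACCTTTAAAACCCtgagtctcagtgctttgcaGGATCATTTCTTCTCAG
Cstdc5, chr16:36367534-36367612, - strand: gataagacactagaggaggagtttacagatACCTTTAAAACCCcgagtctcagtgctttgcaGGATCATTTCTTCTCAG
Stfa2, chr16:36408348-36408425, - strand: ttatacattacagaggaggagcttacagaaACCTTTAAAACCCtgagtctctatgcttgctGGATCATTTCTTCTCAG
Stfa3, chr16:36455379-36455456, - strand: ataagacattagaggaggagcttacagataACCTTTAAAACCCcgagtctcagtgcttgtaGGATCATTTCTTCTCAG
The runs lie 18 or 19 bases apart in each gene. ACCTTTAAAACCC began 33 bases before the annotated start in Stfa1, 32 in Stfa2, 34 in Stfa3, 80 in Csta3 and 12 in Cstdc5. Both runs were taken from these promoters, so their presence in all 5 is a description. Searched on both strands, ACCTTTAAAACCC occurred in 9 of 32851 promoters of 300 bases (0.0274%), all on chromosome 16, of which 8 belong to stefin A family genes and 1 to Gm7260. GGATCATTTCTTCTCAG occurred in 6 (0.0183%), the 5 members shown and Stfa2l1, which has both runs and reached at most 2.00 CPM in any library. Of the shorter motifs searched, which overlap neither run, TTGCNNAA (10.8% of all promoters) was found in Stfa1, Csta3 and Cstdc5, TGANTCA (7.81%) in Stfa3, and TTCNNNGAA (8.3%) in 0 of the 5 windows.

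The stefin A genes were near 0 in syngeneic skin and abundant in allogeneic skin given isotype antibody. The summed counts of the 6 genes were 27, 40, 101 and 183 in the syngeneic libraries and 61574, 45608, 52322 and 49675 in the allogeneic isotype libraries. As CPM this is 3.32 ± 2.33 against 2708 ± 325 (SD, n = 4 each), up to 0.290% of all counts of a library. The groups were far apart, and the fitted log2 fold change of the sum was 9.67 ± 1.48 (SE). In bulk skin, more cells of a type and more RNA per cell cannot be told apart.

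Each gene followed the sum. Cstdc5 had 0.273, 0.0429, 2.06 and 2.71 CPM in syngeneic and 1521, 1455, 1389 and 1714 CPM in allogeneic isotype libraries (log2 fold change 10.20 ± 1.69). Stfa3, which has counts in every library, went from between 0.780 and 2.88 CPM to between 662 and 1016 CPM (8.77 ± 1.42). Cstdc6, the near copy of Cstdc5, was at 0 in 2 syngeneic libraries, at most 0.360 CPM in the others, and at 356, 192, 258 and 251 CPM in allogeneic skin (10.60 ± 1.47). In all 3 genes the groups lay far apart, and Cstdc5 varied least over the allogeneic libraries, with a coefficient of variation of 9.25%.

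The other 3 genes had few or no counts in syngeneic skin, so their ratios are bounds or carry a counting interval (95%, exact, counting error only). Stfa2 had 2 counts over the 4 syngeneic libraries and 7687 over the 4 allogeneic ones, a ratio of 5038 per unit of depth (1394 to 41604). Stfa1 had 1 and 318 counts, a ratio of 417 (74.3 to 16514). Csta3 had 0 counts in every syngeneic library and 384 in allogeneic skin, of which replicate 1 held 246, and was at least 168-fold higher (floor of 3 counts over the group). All 6 members lay higher in every allogeneic isotype library than in any syngeneic one, as did 16.8% of the 20462 genes tested, and their median log2 fold change was 9.92 where that of all genes was 0. The members were chosen on this contrast, so these counts support nothing further.

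Under anti-IL1RAP antibody the genes were almost as low as in syngeneic skin. The summed counts were 239, 1099, 64 and 223, or 14.3 ± 14.0 CPM (SD, n = 4), against 2708 ± 325 CPM with isotype antibody. The log2 fold change of the sum was -7.56 ± 1.35, and -8.50 without mCAN10 replicate 2, which was the highest library at 34.8 CPM. Cstdc5 read 2.12, 15.0, 1.48 and 3.39 CPM (-8.10 ± 1.54), Stfa3 6.56, 16.3, 1.48 and 5.63 CPM (-6.76 ± 1.29), and Cstdc6 0.501, 2.88, 0.0956 and 1.01 CPM (-7.82 ± 1.26). Stfa2 had 22 counts in all (-8.86 ± 1.32). Stfa1 and Csta3 had 1 count each, both in replicate 2, which puts isotype over antibody at 410 (73.1 to 16259.5) and 496 (88.4 to 19624) by counts per unit of depth. Every antibody library was below every isotype library for all 6 genes, as for 10.9% of the genes tested. This contrast and the previous one share the allogeneic isotype libraries, so their opposite directions are not separate evidence.

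Between anti-IL1RAP and syngeneic skin all 6 genes overlapped. Of the genes tested, 10.8% were higher in every anti-IL1RAP library, and the share that was lower is not given here. At such a share, overlap in all 6 genes is not particular to the members. The sum had a log2 fold change of 2.11 ± 1.08, Cstdc5 of 2.10 ± 1.23, Stfa3 of 2.01 ± 1.08 and Cstdc6 of 2.78 ± 1.35. Stfa2, with 22 against 2 counts, had a ratio of 11.2 (2.75 to 98.0). Of these counts 17 were in mCAN10 replicate 2 and both syngeneic ones in replicate 2, and the fitted log2 fold change of Stfa2, 3.07 ± 2.27, was 1.58 without the former and 5.18 without the latter library. Stfa1 and Csta3 were at or under the floor in both groups. Without mCAN10 replicate 2 the sum differed by 1.14.

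**Figure D2:**
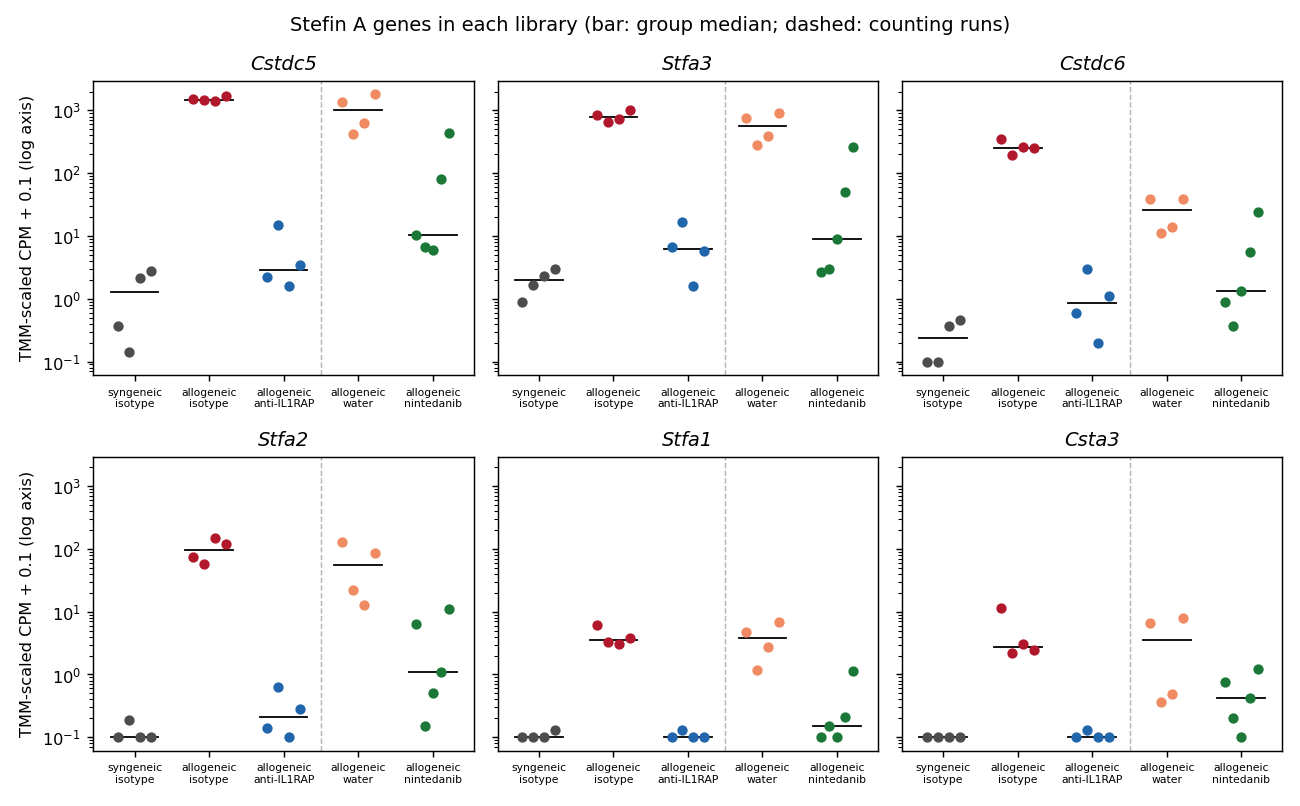
TMM-scaled CPM plus 0.1 on a log axis for each stefin A gene, 1 point per library by group, with the group median as a bar and a dashed line between the counting runs. The 4 allogeneic isotype libraries sit above all syngeneic and anti-IL1RAP libraries in each panel, and the 5 nintedanib libraries lie below all water libraries for Stfa1, Stfa2 and Stfa3 and overlap them for Cstdc5, Cstdc6 and Csta3.

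Nintedanib-treated skin had lower stefin A levels than water-treated skin in most libraries, and 2 of the 6 genes passed the test. The sum was 2307, 745, 1065 and 2836 CPM with water and 20.4, 9.97, 16.5, 139 and 739 CPM with nintedanib. Means were 1738 ± 995 CPM (SD, n = 4) and 185 ± 314 CPM (SD, n = 5), and the log2 fold change was -3.23 ± 1.01. The highest nintedanib library, replicate 5, lay just under the lowest water library, and the other 4 lay well below it.

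Stfa1 fell. It read 4.70, 1.06, 2.64 and 6.67 CPM with water and 0, 0.0530, 0, 0.107 and 1.02 CPM with nintedanib, which rests on 261 against 21 counts. The groups did not overlap, by a narrow margin at replicate 5, and the log2 fold change was -4.00 ± 0.83 with an edgeR adjusted p = 0.00713. Stfa2 also fell, from 129, 22.4, 12.5 and 87.2 CPM to 6.24, 0.0530, 0.416, 1.01 and 10.9 CPM. Its groups did not overlap either (-4.08 ± 0.92, edgeR adjusted p = 0.0116). Both calls are lost when only the 9 water and nintedanib libraries enter the fit (edgeR adjusted p = 0.112 for Stfa1 and 0.127 for Stfa2).

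The other 4 genes had lower means with nintedanib without passing the test. Stfa3 read 746, 286, 394 and 894 CPM with water and 2.62, 2.86, 8.96, 50.6 and 261 CPM with nintedanib, with no overlap (-3.15 ± 1.00, edgeR adjusted p = 0.0537). Cstdc5 read 1383, 424, 642 and 1801 CPM with water and 10.1, 6.63, 5.86, 81.6 and 441 CPM with nintedanib, where replicate 5 passed the lowest water library (-3.29 ± 1.13, edgeR adjusted p = 0.0717). Cstdc6 read 38.1, 11.0, 13.9 and 39.4 CPM with water and 0.780, 0.265, 1.25, 5.54 and 24.0 CPM with nintedanib, where replicate 5 again lay inside the water range (-2.01 ± 0.90, edgeR adjusted p = 0.166). Csta3 read 6.47, 0.265, 0.393 and 7.75 CPM with water, a spread over 2 low and 2 high libraries, and 0.668, 0.106, 0, 0.320 and 1.13 CPM with nintedanib (-3.07 ± 1.01, edgeR adjusted p = 0.0667).

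Thus 2 of 6 members were called lower, where 3.76% of the genes tested were called lower and 9.31% in either direction. In 3 of 6 the groups did not overlap, against 3.2% of all genes in that direction. The median log2 fold change was -3.22 over the members and 0 over all genes. All 6 passed the filter on low counts, which took in all 21 libraries, also the allogeneic isotype ones where the genes were high. The members were chosen for high levels in allogeneic skin, unlike the genes behind these shares. The shares are therefore a description and support nothing further. Without nintedanib replicate 5 all 6 were called, with Stfa3 at -5.16 (edgeR adjusted p = 0.00251), Cstdc5 at -5.35 (0.00601), Cstdc6 at -3.71 (0.00945), Csta3 at -3.77 (0.0394), Stfa1 at -6.39 (0.000345) and Stfa2 at -5.04 (0.00444). That library is the one nearest to the water group, and no other alternative called all 6. Over 18 alternatives Cstdc6 was called in 1, Csta3 in 2, Cstdc5 in 3 and Stfa3 in 4.

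A note on sequencing over 2 lanes stands on 2 water and 3 nintedanib libraries. The sum had a log2 fold change of -2.60 among libraries with the note and -4.61 among those without it. Stfa1 was at -3.02 and -6.25 and Stfa2 at -4.33 and -3.77, and with so few libraries edgeR called 0 genes in either subset (1450 and 860 genes had an unadjusted p under 0.05). Without nintedanib replicates 1 and 3, the libraries with high hair follicle genes, Stfa1 was at -3.30 (edgeR adjusted p = 0.0226) and Stfa2 at -4.01 (edgeR adjusted p = 0.0341). Of the nintedanib libraries with Y-linked counts, leaving out replicate 2 gave Stfa1 -3.76 and Stfa2 -3.76 (edgeR adjusted p = 0.013 and 0.0131), and leaving out replicate 4 gave -3.86 and -3.84 (edgeR adjusted p = 0.0108 and 0.0173).

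**Figure D3:**
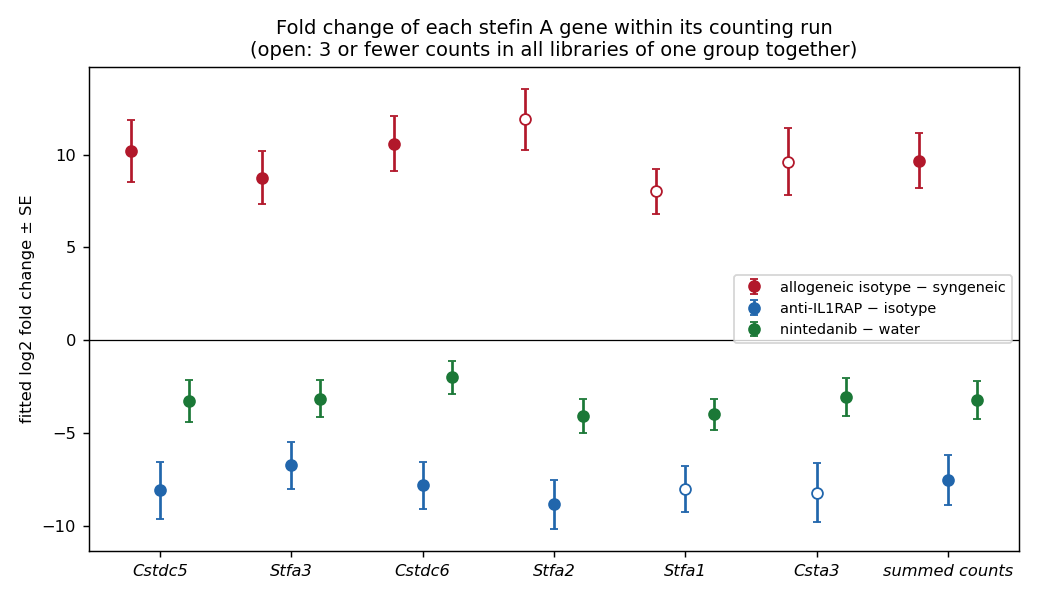
Fitted log2 fold change ± SE for each stefin A gene and for the summed counts, in 3 comparisons, with open points where 1 group held 3 or fewer counts in all. Values lie between 8.02 and 11.92 for allogeneic against syngeneic isotype, between -8.86 and -6.76 for anti-IL1RAP against isotype, and between -4.08 and -2.01 for nintedanib against water.

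Levels of different members can be compared only per length of transcript, here CPM per kilobase of the GENCODE M21 transcript. In allogeneic isotype skin Cstdc5 stood first with 2455 ± 227 CPM per kilobase, then Stfa3 with 1980 ± 377, Cstdc6 with 683 ± 176, Stfa2 with 212 ± 86.6, Csta3 with 15.8 ± 15.1 and Stfa1 with 6.53 ± 2.34 (SD, n = 4). Cstdc5 and Stfa3 overlapped, as did Csta3 and Stfa1, while the steps from Stfa3 to Cstdc6, Cstdc6 to Stfa2 and Stfa2 to Csta3 were larger than the spread over libraries. The Csta3 transcript in the annotation is 294 bases and holds coding sequence only, which raises its value per kilobase. The Cstdc5 transcript used is 619 bases, while the exons of that gene together hold 790 bases. With the longer length the value of Cstdc5 would be lower, so its place before Stfa3 is uncertain. The annotation used for counting was not given. In water-treated skin Stfa2 stood before Cstdc6, at 133 ± 117 and 66.1 ± 39.4 CPM per kilobase, and these overlapped.

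The place of Cstdc6 is where the counting runs differed. Its level per length was 21.1% to 37.5% of that of Cstdc5 in allogeneic isotype libraries and 3.47% to 4.41% in water libraries. Counting run and antibody or water treatment cannot be told apart here, and these 2 genes share 95.2% of their coding sequence. Within the second run the ratio was 6.40% to 34.0% in nintedanib libraries, all above the water libraries, a difference noticed in the data and given without a test. In nintedanib replicates 1, 2 and 3 it rests on 14, 5 and 27 counts of Cstdc6 and 182, 125 and 127 of Cstdc5. Water libraries had 207 to 691 counts of Cstdc6. Ratios from so few counts are imprecise. In nintedanib replicate 1, Stfa2 made up 32.9% of the members' signal per length, where no other library had more than 6.25%.

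**Figure D4:**
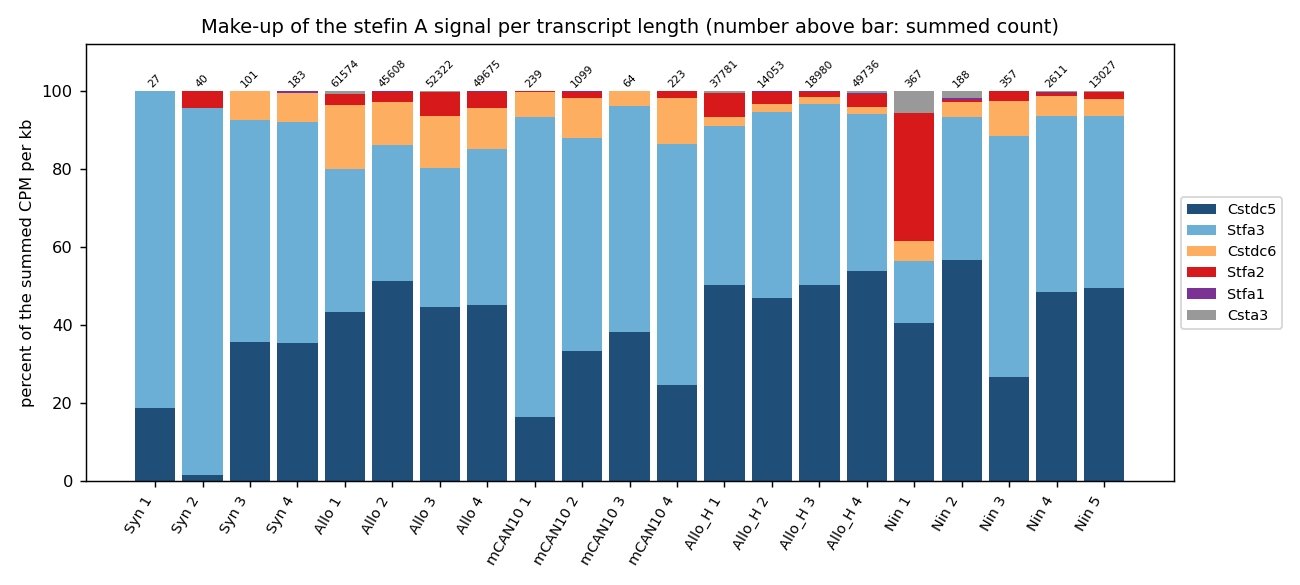
Share of each stefin A gene in the summed CPM per kilobase of transcript, as a percent on the y axis, with 1 stacked bar per library and the summed count above it. Cstdc5 and Stfa3 hold most of each bar in the allogeneic isotype and water libraries, the Cstdc6 band is thin in the 4 water libraries, and nintedanib replicate 1 has a Stfa2 band of 32.9%.

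A gene on the opposite strand overlaps Cstdc5. Gm15845, annotated as antisense and named here after its values were seen, shares 145 exon bases with Cstdc5 in GENCODE M21, and the labels' protocols name no step that marks strand. The use of strand in counting was not given in the sources used here. Its counts were 25288, 21846, 20824 and 19335 in allogeneic isotype libraries, 70.5% to 78.1% of those of Cstdc5, and 7, 0, 33 and 52 in syngeneic ones. The anti-IL1RAP libraries had 42, 349, 15 and 53. All 9 libraries of the second run had 0 counts under this name. The shared bases are 18.4% of the Cstdc5 exons and 14.6% of those of Gm15845. Without strand, reads that fall in them cannot be placed on 1 of these genes with certainty, and what part they had in the Cstdc5 counts was not tested.

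Of the other stefin A family symbols, 5 of 11 were in the table and only Csta1, a stefin A gene with counts in every library, passed the filter. Csta1 read 34.5, 42.1, 82.1 and 104 CPM in syngeneic, 227, 121, 190 and 396 CPM in allogeneic isotype, and 52.2, 71.0, 52.5 and 43.7 CPM in anti-IL1RAP libraries. It rose in allogeneic skin (1.83 ± 0.41, edgeR adjusted p = 0.00375) and fell under the antibody (-2.09 ± 0.41, edgeR adjusted p = 0.00373), with no overlap in either case. With nintedanib it was at -1.16 ± 0.38 (edgeR adjusted p = 0.0586). Cstdc3 had 0 counts in every library, and Csta2, Cstdc4 and Stfa2l1 reached at most 2.00 CPM.

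Among 19 other cystatins 5 were tested. In allogeneic skin 2 rose, the intracellular inhibitor Cstb (1.01 ± 0.29, edgeR adjusted p = 0.0169) and Cst7, a cystatin of cytotoxic and myeloid cells (2.06 ± 0.62, edgeR adjusted p = 0.022), where 22.6% of all genes were called. Under anti-IL1RAP 0 of 5 were called, where 10.8% of all genes were, and Cstb, at -0.79 ± 0.29, had the lowest edgeR adjusted p of 0.0856. With nintedanib 1 fell, Fetub (-2.02 ± 0.62, edgeR adjusted p = 0.0486), while the secreted inhibitors Cst3 and Cst6 were at -0.37 ± 0.21 and 0.76 ± 0.36 and were not called.

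Stefins act on the papain-like cathepsins. Of 11 cysteine cathepsins and legumain, 6 rose and 1 fell in allogeneic skin, with a list median of 1.07, where 22.6% of all genes were called in either direction. Ctss, the cathepsin of antigen-presenting cells, rose by 3.25 ± 0.64 (edgeR adjusted p = 0.00159), the aminopeptidase Ctsh by 1.41 ± 0.17 (5.01e-05) and Ctsc, which activates granule serine proteases, by 1.71 ± 0.28 (0.000391). Under anti-IL1RAP Ctsh fell (-0.85 ± 0.17, edgeR adjusted p = 0.0041) and Ctsf rose (0.66 ± 0.15, edgeR adjusted p = 0.00745), and the other 9 were not called, where 10.8% of all genes were called. With nintedanib Ctsh (-0.62 ± 0.16, edgeR adjusted p = 0.0221) and legumain, Lgmn (-0.95 ± 0.28, edgeR adjusted p = 0.0395), fell, 2 of 11 where 9.31% of all genes were called.

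Stefin A is itself a component of the cornified envelope. Of 22 other envelope and transglutaminase genes tested, 18 rose in allogeneic skin (list median 5.86), where 13.8% of all genes rose. Under anti-IL1RAP 15 fell (-5.32), where 5.19% of all genes fell, and with nintedanib 6 fell (-1.62), where 3.76% of all genes fell. Sprr1b, a small proline-rich envelope protein, was at 9.04 ± 1.30, -7.31 ± 1.19 and -4.11 ± 0.93 in these comparisons (edgeR adjusted p = 0.000144, 0.00109 and 0.0116). Of 12 activated keratinocyte genes 9 rose, 9 fell and 7 fell, with Krt16, a keratin of stressed epidermis, at 6.88 ± 0.79, -5.54 ± 0.74 and -4.60 ± 0.64 (edgeR adjusted p = 2.62e-05, 0.000299 and 0.000844). Krt17 of the same list had higher means under both treatments. It was at 1151 ± 145 CPM with anti-IL1RAP against 1006 ± 506 with isotype antibody (SD, n = 4 each). With nintedanib it was at 1271 ± 665 CPM (SD, n = 5) against 745 ± 323 with water (SD, n = 4). The summed level of the 13 listed activated keratinocyte genes was 4483 to 9079 CPM in allogeneic isotype, 874 to 1415 in syngeneic, 1210 to 1746 in anti-IL1RAP, 2496 to 11122 in water and 953 to 2802 CPM in nintedanib libraries.

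Stefin A copies are also known from neutrophils. Of 10 neutrophil markers tested, 6 rose in allogeneic skin (list median 2.15), 4 fell under anti-IL1RAP (-1.22) and 3 fell with nintedanib (-1.68). Over all genes 13.8% rose, 5.19% fell and 3.76% fell in these comparisons. The chemokine receptor Cxcr2 was at 5.20 ± 0.81, -3.58 ± 0.73 and -2.82 ± 0.65 (edgeR adjusted p = 0.000264, 0.0046 and 0.0128). In each comparison 0 markers were called in the opposite direction, but some means went that way. Ltf was at 11.3 ± 20.2 CPM in syngeneic, 0.397 ± 0.231 in allogeneic isotype and 7.67 ± 10.8 in anti-IL1RAP skin (SD, n = 4 each). Elane was at 0.434 ± 0.380 CPM in syngeneic and 0.164 ± 0.165 in allogeneic isotype skin. The 15 listed genes summed to 147 to 267 CPM in allogeneic isotype, 26.1 to 90.1 in syngeneic, 35.9 to 68.2 in anti-IL1RAP, 123 to 436 in water and 19.9 to 103 CPM in nintedanib libraries. The defining markers Ly6g, Camp and Cxcr1 had at most 11 counts in any library, and Ngp and Mpo at most 39. Of 12 macrophage and monocyte genes 7 rose, 0 fell under anti-IL1RAP (lowest edgeR adjusted p = 0.274, for Lyz2) and 1, C1qa, fell with nintedanib. What part these cells had in the stefin A levels was not tested.

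**Figure D5:**
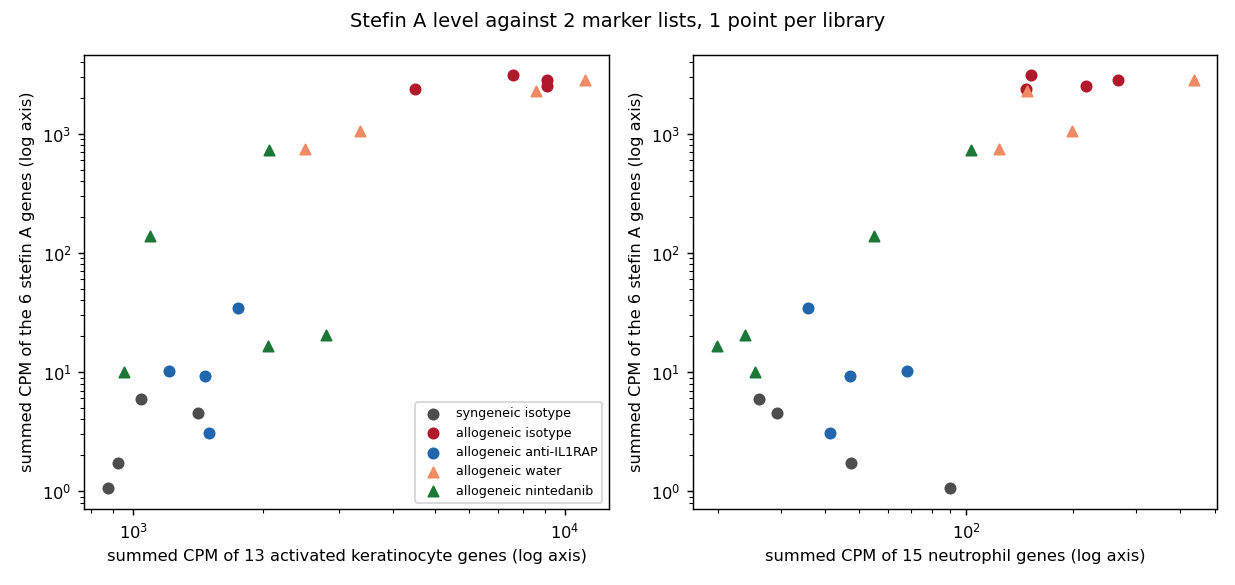
Summed CPM of the 6 stefin A genes (log axis) against the summed CPM of 13 activated keratinocyte genes and of 15 neutrophil genes (log axes), 1 point per library, circles for the first and triangles for the second counting run. In both panels the allogeneic isotype and water libraries lie at the top right. Nintedanib replicates 1 and 3, the libraries with high hair follicle genes, combine 2802 and 2052 CPM of activated keratinocyte genes with stefin sums of 20.4 and 16.5 CPM. Of the keratinocyte sum in replicate 1, Krt17 made up 2213 CPM. Krt16 was at 78.0 and 31.6 CPM in replicates 1 and 3, against at least 553 CPM with water. Krt6b was at 8.69 and 10.1 CPM there, against at least 687 CPM with water.

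The genes whose levels followed the stefin A sum most closely over the 12 libraries of the first run were Slc34a2, a phosphate transporter (Pearson r of log2 CPM 0.99), the gasdermin gene Gsdmc3 (0.99), the serpin Serpinb3a (0.99), Krt16 (0.99), Krt6b (0.98) and the amino acid transporter Slc6a20a (0.98). These values describe the gap between the 4 allogeneic isotype libraries and the rest, which all 6 share. Over the 9 libraries of the second run, which the choice did not use, r was 0.73, 0.88, 0.83, 0.92, 0.96 and 0.91 in the same order. These values also hold the gap between water and nintedanib libraries, so a gene lower with nintedanib can score high for that reason alone. Krt6b ranked 8 there among 15769 genes and Slc34a2 ranked 1304. Krt6b read 2330, 687, 1113 and 3895 CPM with water and 8.69, 9.76, 10.1, 21.4 and 208 CPM with nintedanib, so that the same library, replicate 5, stood highest among the nintedanib libraries.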

How the data were processed

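RNA-seq was done on 21 skin libraries. The authors deposited 1 table of raw read counts by gene symbol. The submitters' processing notes list STAR, featureCounts, Trimmomatic and FastQC, and the GRCm39 build. Their versions and settings, the read length and the annotation were not stated in the sources used here. Per the labels' protocols the library kit was NEBNext Ultra on poly-A RNA, from 1 μg of RNA.

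The stefin A genes and the gene lists were chosen with earlier results of these data known. Counts were fitted with edgeR 4.0.16 in R 4.3.3 (glmQLFit, glmQLFTest, TMM factors, filterByExpr at a minimum count of 10, which kept 20462 genes), in 1 fit of all 21 libraries with group means. A gene was called where its p, adjusted over all genes by Benjamini-Hochberg, was under 0.05. Errors of fold changes are SE, and CPM is TMM-scaled. For summed counts the 6 genes were replaced by 1 feature. A member's ratio with 1 to 3 counts in a group carries an exact binomial interval of the pooled counts. The labels do not say that each replicate is a separate mouse, so p-values measure the spread between samples only. The calculations were tested on simulated data.

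Named beyond the 6 members were up to 4 genes with the lowest p per list and comparison, the other stefin A family symbols, and the 6 genes with the highest Pearson r of log2 CPM (prior 2) to the members' sum over the first counting run. Krt14, Krt17, Gm15845 and the neutrophil markers Ly6g, Camp, Cxcr1, Ngp, Mpo, Ltf and Elane were named outside this rule, after their values were seen. The 14 lists also held differentiated and basal keratinocyte, fibroblast, T cell, skeletal muscle and sebaceous gland genes. In the order of allogeneic against syngeneic, anti-IL1RAP against isotype and nintedanib against water, 22.6%, 10.8% and 9.31% of all genes were called in either direction. Over all genes 13.8% rose in the first, 5.19% fell in the second and 3.76% fell in the third. In the same order, 8 of 13 differentiated keratinocyte genes rose, 7 fell and 3 fell. Of 9 basal keratinocyte genes 1 rose and 1 fell, 1 rose and 1 fell, and 1 rose and 2 fell. Of 8 fibroblast genes 2 fell, 2 rose and 0 were called. Of 9 T cell genes 8 rose, then 0 and 0 were called, and of 12 muscle genes 1 fell, then 0 and 0 were called. Of 10 sebaceous genes 6 fell, 7 rose and 8 rose, and of 14 hair follicle genes 0, 0 and 8 rose.

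Sequences came from GENCODE M21 transcripts and the RefSeq promoter table, aligned with Biopython 1.88 in Python 3.11.15, and figures were drawn with matplotlib 3.10.9. Alternatives were RLE factors, no filter, only the groups compared, only 1 counting run, a replicate block, DESeq2 1.42.0, the 2 lane subsets and each library left out. The hair follicle exclusion and the restriction to symbols with counts in both runs were added after seeing the data.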

Additional observations from a re-analysis of the deposited data

Results flagged for a closer look

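A check for a library far from the others of its group covered 34 combinations of a gene, or the sum, with a group, and marked 11 of them. Chance alone marks about 1 in 20 groups of continuous values. That rate cannot be set against these marks, since 4 of the 11 rest on 1 or 2 counts in 1 library with 0 in the others, where a mark is certain. Nintedanib replicate 5 was far above the other 4 for Stfa1 (1.02 CPM, next 0.107), Stfa3 (261, next 50.6), Cstdc5 (441, next 81.6), Cstdc6 (24.0, next 5.54) and the sum (739, next 139 CPM). These marks share 1 library, so they are not independent of each other.

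In the anti-IL1RAP group replicate 2 was far above the rest for Cstdc5 (15.0 CPM, next 3.39) and, with 1 count each, for Stfa1 and Csta3 (both 0.0316 CPM, next 0). Allogeneic isotype replicate 1 was high for Csta3 (11.3 CPM, next 2.95). In syngeneic skin Stfa1 in replicate 4 (0.0327 CPM) and Stfa2 in replicate 2 (0.0858 CPM) rest on 1 and 2 counts, where the other libraries had 0.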

How the results depend on the processing

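All 6 genes stayed below water in the 18 alternatives for nintedanib, and Stfa1 and Stfa2 were called in 14 of 18 each. Both calls were lost with only the groups compared, in both lane subsets and with the replicate block (edgeR adjusted p = 0.0911 and 0.0748), where Cstdc5 was called instead (0.0461) and the sum was at -5.87. Whether the replicate numbers pair samples is not known. Deviations of same-numbered libraries correlated between -0.27 and -0.0027 for nintedanib and water, and between -0.01 and 0.43 for anti-IL1RAP and isotype. With 4 pairs each, these values cannot settle it. For mCAN10 the title numbers were used, which differ from those of the count columns. Stfa3 was called with RLE factors (edgeR adjusted p = 0.049) and with symbols of both runs (0.0446), and DESeq2 called Stfa3 (0.00471), Csta3 (0.0355) and Cstdc5 (0.0199). Leaving out 1 library moved the sum between -5.22, without nintedanib replicate 5, and -2.89.

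Genes called for nintedanib numbered 1906, but 1190 without a filter, 94 with only the groups compared, 33 with the replicate block, 0 and 0 in the lane subsets, 3058 by DESeq2, 1225 without nintedanib replicates 1 and 3, and 782 to 2794 with 1 library left out. For anti-IL1RAP against isotype the count was 2204, and 3664 with the same counting run alone, or 1284 to 2168 with 1 library left out. Against syngeneic skin it was 166, but 2131 with only the groups compared, 695 with the replicate block, 505 with 1 run, 672 by DESeq2, 106 with symbols of both runs and 31 to 152 with 1 library left out. The cause was not tested. Leaving out mCAN10 libraries in turn moved the sum from -8.50 to -7.25 against isotype and from 1.14 to 2.56 against syngeneic skin. For allogeneic against syngeneic 4621 genes were called, and 3455 to 6538 over the 15 alternatives, where the members' sum was at 9.37 to 10.12. Low counts limit Stfa1 and Csta3, and the lane and counting runs hold too few libraries for finer tests.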
